A study of Mus musculus with 16 samples.

Results

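The genes described here encode 7 collagen chains that do not build the large striated fibrils themselves: Col6a1, Col6a2 and Col6a3 of type VI, Col7a1 of type VII, Col12a1 of type XII, Col14a1 of type XIV and Col16a1 of type XVI. They were found by symbol among the 52636 genes of the count table, and all 7 had enough counts to be among the 17125 genes tested. RNA had been sequenced from whole descending thoracic aorta, the chest part of the aorta, of mice of 2 inbred strains, in 16 libraries. The groups were C57BL/6J made hypertensive with angiotensin II (AngII, a vasoconstrictor peptide), C57BL/6J control, 129S6/SvEvTac with AngII and 129S6/SvEvTac control, with 4 libraries each. No engineered allele is named for any group, and the sources used here do not give the age of the mice or the dose and duration of AngII. The labels do not say that the libraries came from separate animals, so p-values measure the spread between libraries. Pairs of libraries of the same group differed by more than counting error, with a chi-square per degree of freedom of 40.9 to 381. Whether the spread beyond counting error is technical or between animals was not tested.

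Type VI collagen is built from 3 different chains that join into a monomer, pair up and link end to end into beaded microfilaments around cells. Types XII, XIV and XVI belong to the fibril-associated collagens, which lie on or near the fibrils of type I and other collagens and link them to neighbouring matrix. Type VII forms the anchoring fibrils that hold the epidermal basement membrane to the dermis. In the vessel wall the fibrillar collagens bear load at high stretch, and fibroblasts of the adventitia, the outer layer, are a main source of collagen.

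Col6a1 and Col6a2 lie side by side on the minus strand of chromosome 10 in GRCm38, Col6a1 (ENSMUSG00000001119.7) at 76708792 to 76726168 and Col6a2 (ENSMUSG00000020241.13) at 76595762 to 76623630. Between them lie 85161 bases and 0 protein-coding genes. Col6a3 (ENSMUSG00000048126.16) lies on chromosome 1 at 90765923 to 90843971 on the minus strand. Col12a1 (ENSMUSG00000032332.17, 79598991 to 79718831, minus strand) and Col7a1 (ENSMUSG00000025650.12, 108953586 to 108984875, plus strand) are both on chromosome 9. Col14a1 (ENSMUSG00000022371.15) is on chromosome 15 at 55307750 to 55520803 and Col16a1 (ENSMUSG00000040690.15) on chromosome 4 at 130047840 to 130099283, both on the plus strand. None of the 7 shares exon bases with another annotated gene, apart from 36 bases that Col7a1 shares with the microRNA gene Mir711.

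The promoters of 4 genes are shown because Col6a1, Col6a2 and Col6a3 encode the chains of 1 protein but differed in the size of their AngII response, and because Col16a1 differed between strains. Each window runs from 250 bases before to 50 bases after a transcription start, 5′ to 3′ on the gene's strand, and comes from RefSeq on GRCm38.p6. Col12a1 and Col14a1 are named only. Capitals mark matches, on either strand, to 6 motifs. These are TATAAA of the core promoter, the CCAAT box, the Sp1 motif GGGCGG, the AP-1 motif TGANTCA, the TEAD motif CATTCC and the SMAD motif CAGAC.
Col6a1, chr10:76725995-76726294: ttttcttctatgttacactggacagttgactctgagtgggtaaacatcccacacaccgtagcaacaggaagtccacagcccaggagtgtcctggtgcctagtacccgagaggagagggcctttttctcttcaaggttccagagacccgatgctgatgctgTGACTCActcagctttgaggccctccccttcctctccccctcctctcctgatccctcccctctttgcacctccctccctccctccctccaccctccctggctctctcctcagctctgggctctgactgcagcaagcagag
Col6a2, chr10:76623581-76623880: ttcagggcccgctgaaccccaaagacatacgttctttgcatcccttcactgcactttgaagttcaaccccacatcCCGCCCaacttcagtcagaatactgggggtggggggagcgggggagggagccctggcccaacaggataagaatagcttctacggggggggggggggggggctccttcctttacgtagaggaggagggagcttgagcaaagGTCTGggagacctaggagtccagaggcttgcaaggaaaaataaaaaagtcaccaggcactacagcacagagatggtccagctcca
Col6a3, chr1:90843922-90844221: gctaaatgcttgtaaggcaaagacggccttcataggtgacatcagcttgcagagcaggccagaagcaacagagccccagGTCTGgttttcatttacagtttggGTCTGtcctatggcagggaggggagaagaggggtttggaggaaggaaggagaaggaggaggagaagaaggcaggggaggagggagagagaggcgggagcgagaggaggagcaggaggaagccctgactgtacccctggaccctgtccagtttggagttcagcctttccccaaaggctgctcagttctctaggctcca
Col16a1, chr4:130047590-130047889: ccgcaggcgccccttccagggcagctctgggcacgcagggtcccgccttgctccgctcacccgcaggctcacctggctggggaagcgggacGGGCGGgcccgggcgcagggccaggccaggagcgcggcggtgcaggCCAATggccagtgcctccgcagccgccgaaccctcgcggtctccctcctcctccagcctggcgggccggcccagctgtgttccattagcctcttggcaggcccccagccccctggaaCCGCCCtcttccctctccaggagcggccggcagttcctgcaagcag
None of the 6 motifs was found in all 3 of the type VI windows shown. The Col6a1 window held 1 match to TGANTCA, which 7.81% of all 32851 promoter windows hold. The Col6a2 window held 1 GGGCGG and 1 CAGAC, and the Col6a3 window held 2 CAGAC, a motif found in 49.6% of all windows. The Col16a1 window had the highest G and C content, with 74.3% G and C and 24 CpG pairs, against 57.3%, 56.7% and 56.3% and 3, 6 and 3 CpG pairs for Col6a1, Col6a2 and Col6a3 (median of all windows 52.7%). It held 2 GGGCGG, which 35.7% of windows hold, and 1 CCAAT, which 37.4% hold. The outline of the CArG box, with any 6 bases between CC and GG, was searched too and left in lower case, as 73.3% of windows hold it, and it was found in the windows of Col6a1, Col6a3 and Col16a1. Like the Col6a1 window shown, a further Col6a2 window in RefSeq lies around a start within the annotated gene. It held 3 GGGCGG, 1 CATTCC and 4 matches to the CArG outline, with 64.3% G and C and 16 CpG pairs, and is not shown. Nor is that of Col7a1, with 58.7% and 12 CpG pairs. None of the 4 windows shown held TATAAA (13.6% of all windows) or CATTCC (14.7%). A match is a run of letters and was not tested for binding.

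Totals per library ran from 42116120 to 61381134 counts in 15 libraries, and 129S6/SvEvTac AngII replicate 5 had 121573945. All 10 vascular smooth muscle markers, the defining genes of the aortic media, were tested, and they summed to at least 13624 read counts scaled to library size (CPM) in every library. The counts of Tagln, Smtn and Des among them are uncertain, because each shares exon bases with other genes (62.4% of those of Tagln with Gm48529). Some markers of other lists share exon bases too, such as Csf1r of macrophages and Lipe of adipocytes. The smooth muscle sum was 13624 to 32145 CPM in the C57BL/6J AngII libraries, with the highest value in replicate 3. In the C57BL/6J controls it was 42859 to 46444 CPM. In 129S6/SvEvTac the same sum was 40594 to 51835 CPM with AngII and 44599 to 48168 CPM in controls. In C57BL/6J 9 of the 10 fell with AngII and in 129S6/SvEvTac 0 were called. The 8 macrophage markers all rose in C57BL/6J, to a sum of 991.3 to 1897 CPM with AngII against 337.0 to 452.6 CPM in controls, and none was called in 129S6/SvEvTac (225.0 to 426.6 CPM with AngII, 177.0 to 325.0 CPM in controls). Of 10 adipocyte markers 9 rose in C57BL/6J, where the sum was 234.1 to 3778 CPM with AngII and 191.3 to 386.6 CPM in controls. In 129S6/SvEvTac none of the 10 was called, at 389.3 to 1434 CPM with AngII and 250.2 to 739.4 CPM in controls. The 10 adventitial fibroblast markers overlapped between the C57BL/6J groups, at 2858 to 3974 CPM with AngII and 2858 to 3314 CPM in controls, with 4 of them higher and 2 lower, and in 129S6/SvEvTac 2 of the 10 rose, at 2143 to 2978 CPM with AngII and 2049 to 2799 CPM in controls. Of 6 cartilage markers 5 were tested, and 4 rose in C57BL/6J, with a sum of 140.7 to 385.4 CPM with AngII and 53.0 to 62.7 CPM in controls. In 129S6/SvEvTac 1 of the 5 rose, and the sum did not overlap, at 10.6 to 17.3 CPM with AngII and 5.09 to 9.03 CPM in controls. Of 8 endothelium markers 2 rose in each strain. Of 10 skeletal and cardiac muscle markers 9 were tested, and none was called with AngII in either strain. Their sum was uneven, at 193.0 CPM in C57BL/6J AngII replicate 1 and 445.2 CPM in 129S6/SvEvTac AngII replicate 5. It was 247.0 CPM in 129S6/SvEvTac control replicate 3 and 9.95 to 79.1 CPM in the other libraries. Of 8 nerve markers 3 rose and 1 fell in C57BL/6J, and of 6 mesothelium markers 2 rose there, while neither list had a call in 129S6/SvEvTac. The summed nerve markers were nevertheless lower with AngII in both strains, without overlap. This sum was 220.1 to 386.9 CPM with AngII and 480.3 to 575.8 CPM in controls of C57BL/6J. In 129S6/SvEvTac it was 341.7 to 446.7 CPM with AngII and 499.1 to 604.4 CPM in controls. Differences in the number of cells of a type and in RNA per cell cannot be told apart in whole tissue.

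The first comparison asked what AngII changed in C57BL/6J aortas. In these aortas 6 of the 7 genes rose: Col12a1 most, then Col16a1, Col6a3, Col14a1, Col6a1 and Col6a2, while Col7a1 was barely detected and was not called. Of all genes tested, 38.9% were called here, 21.8% higher and 17.1% lower, and the median log2 fold change was 1.21 over the 7 genes and 0.00918 over all genes. In each of the 6 every AngII library lay above every control, a separation that 19.2% of all genes showed. Calls throughout are edgeR quasi-likelihood tests with a Benjamini-Hochberg adjusted p below 0.05 over all 17125 genes.

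Col12a1, a fibril-associated chain that is known from tissues under high tensile stress, stood at 626.4, 571.3, 159.9 and 506.1 CPM in C57BL/6J AngII replicates 1, 2, 3 and 5. In the C57BL/6J controls it stood at 31.9, 44.0, 20.6 and 29.7 CPM in replicates 1, 2, 3 and 5. The lowest AngII library, replicate 3, was also the one with the highest smooth muscle marker sum of its group, and still lay above all controls. The change was 14.8-fold, a difference of 3.88 ± 0.37 on the log2 scale (SE, adjusted p = 3.17e-06). Without replicate 3 the log2 fold change was 4.18.

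Col16a1, a minor fibril-associated chain, had 208.0, 176.1, 151.0 and 249.98 CPM in C57BL/6J AngII replicates 1, 2, 3 and 5, against 46.0, 46.5, 49.3 and 39.95 CPM in control replicates 1, 2, 3 and 5. The groups were well apart, the lowest AngII library having 151.0 CPM and the highest control 49.3 CPM. The log2 fold change was 2.11 ± 0.18 (SE, adjusted p = 1.22e-06), or 4.32-fold.

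Col14a1, a fibril-associated chain closely related to type XII in its domains, had 824.8, 613.8, 648.9 and 1050.1 CPM in C57BL/6J AngII replicates 1, 2, 3 and 5. The controls were tightly grouped at 347.5, 338.6, 339.3 and 331.3 CPM. Replicates 5 and 1, the highest for Col14a1, were also the libraries of their group with the highest adipocyte and macrophage marker sums (1645 and 3778 CPM for adipocytes, 1897 and 1674 CPM for macrophages). The log2 fold change was 1.21 ± 0.17 (SE, adjusted p = 5.11e-05), and 0.89 (adjusted p = 0.00248) with the adipocyte marker level as a covariate. The part of the macrophage markers was not tested.

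The 3 type VI chains rose by unequal amounts. Col6a3, the largest chain, had 2190.7, 2438.8, 1449.0 and 1535.9 CPM in C57BL/6J AngII replicates 1, 2, 3 and 5, against 658.1, 586.0, 635.7 and 572.3 CPM in control replicates 1, 2, 3 and 5. Its log2 fold change was 1.63 ± 0.16 (SE, adjusted p = 3.78e-06). Replicates 1 and 2 were higher than 3 and 5, but every AngII library exceeded the highest control by more than the control range. Col6a1 had 1355.8, 1192.8, 1141.4 and 1341.1 CPM with AngII and 715.0, 651.1, 753.8 and 693.5 CPM in controls, in the same order of replicates, a difference of 0.84 ± 0.11 on the log2 scale (SE, adjusted p = 4.51e-05). Col6a2 had 1521.5, 1310.7, 1424.9 and 1503.1 CPM with AngII and 978.4, 909.1, 1049.5 and 903.4 CPM in controls, a difference of 0.58 ± 0.11 on the log2 scale (SE, adjusted p = 0.000617). Both separated fully from their controls, with smaller changes than Col6a3.

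Col7a1 was near the limit of detection, with 30 to 85 counts per library in C57BL/6J with AngII and 16 to 31 counts in controls. Its mean was 0.940 ± 0.396 CPM with AngII and 0.480 ± 0.166 CPM in controls (SD, n = 4 each), the groups overlapped, and the log2 fold change of 0.97 ± 0.61 (SE) was not called (adjusted p = 0.231). Keratinocyte markers, counted because type VII is best known from skin, summed to 1.34 to 2.49 CPM in the C57BL/6J AngII libraries and 1.88 to 2.14 CPM in the C57BL/6J controls. Of those 7 markers Dsg3, Krt14, Krt15 and Krt5 had no counts in C57BL/6J controls.

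**Figure D1:**
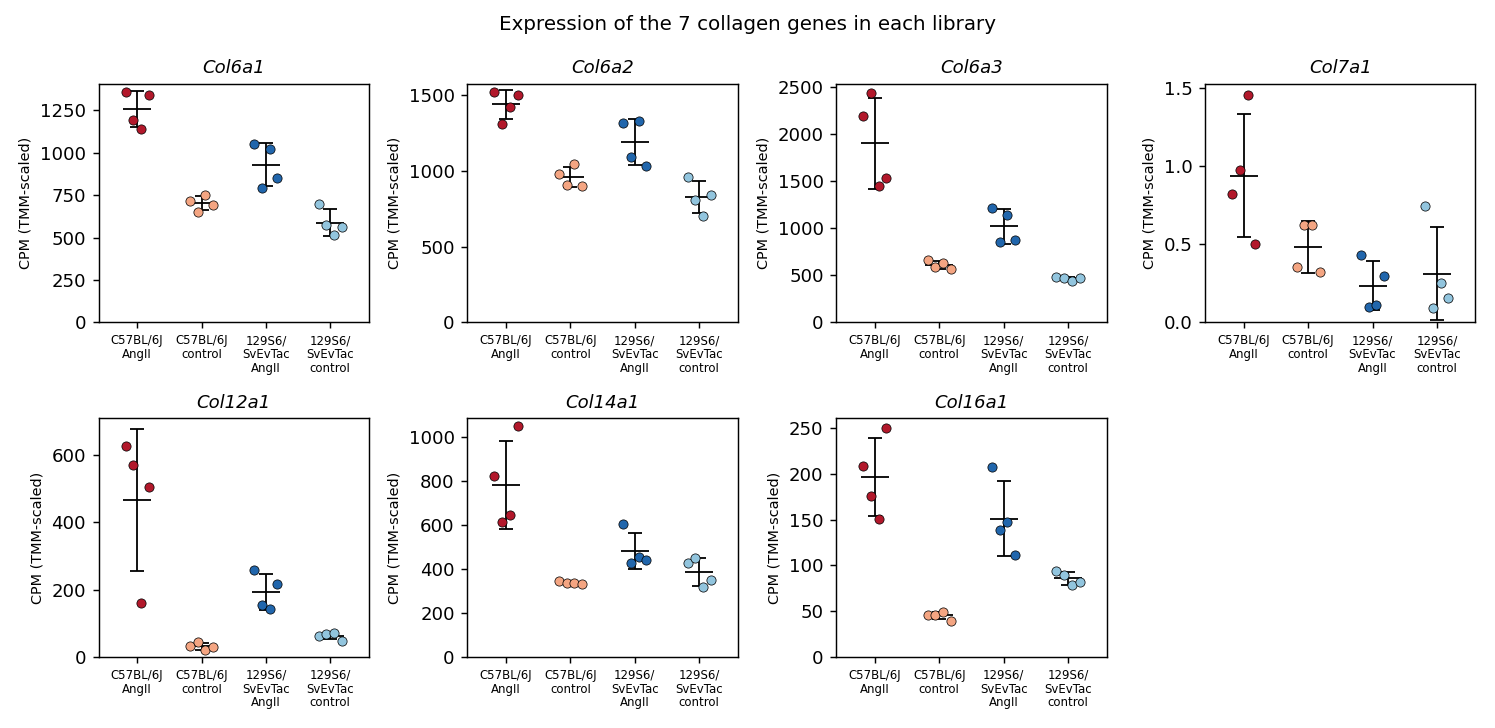
Expression of each collagen gene in CPM (y axes from 0, scaled by TMM) in the 16 libraries, with points for libraries, horizontal marks for group means and bars for SD (n = 4). The C57BL/6J AngII libraries lie above the C57BL/6J controls for all genes but Col7a1, and for Col12a1 they spread from 159.9 to 626.4 CPM.

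In 129S6/SvEvTac the same question was put. Here 5 of the 7 genes rose, against 7.71% of all genes called higher, 4.47% lower and 12.2% in all: Col12a1, Col6a3, Col16a1, Col6a1 and Col6a2. The median log2 fold change over the 7 was 0.66, against 0.00272 over all genes. Col14a1 and Col7a1 were not called.

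Col12a1 had 257.4, 155.8, 142.3 and 218.0 CPM in 129S6/SvEvTac AngII replicates 1, 2, 4 and 5, against 62.2, 67.9, 71.0 and 48.7 CPM in control replicates 1, 2, 3 and 4. All AngII libraries lay above all controls, with a 3.10-fold change (log2 fold change 1.63 ± 0.34, SE, adjusted p = 0.00629). Col6a3 had 1219.0, 851.0, 1140.6 and 880.9 CPM with AngII and 487.6, 466.5, 444.9 and 467.0 CPM in controls, in the same order of replicates. It again changed more than its partner chains, at 1.13 ± 0.16 on the log2 scale (SE, adjusted p = 0.000378). Col16a1 had 207.3, 139.1, 147.0 and 111.1 CPM with AngII and 94.3, 89.3, 78.4 and 82.0 CPM in controls, a difference of 0.81 ± 0.17 on the log2 scale (SE, adjusted p = 0.00658). Its AngII libraries were all higher, although replicate 5 exceeded the highest control by less than the spread of its own group.

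Col6a1 averaged 930 ± 127 CPM with AngII and 587 ± 78.9 CPM in 129S6/SvEvTac controls, and Col6a2 averaged 1193 ± 152 CPM with AngII and 827 ± 106 CPM without (SD, n = 4 each). Neither gene overlapped between the groups, a separation that 12.4% of all genes showed upward in this strain, and the log2 fold changes were 0.66 ± 0.11 for Col6a1 (SE, adjusted p = 0.00158) and 0.53 ± 0.11 for Col6a2 (SE, adjusted p = 0.00558). Col14a1 had 607.5, 429.3, 457.8 and 440.5 CPM with AngII, in replicates 1, 2, 4 and 5, and 430.0, 451.6, 317.7 and 351.9 CPM in control replicates 1, 2, 3 and 4. The groups overlapped, replicate 1 being far above the other AngII libraries, and the log2 fold change of 0.32 ± 0.16 (SE) was not called (adjusted p = 0.241). Col7a1 had 4 to 34 counts with AngII and 5 to 33 counts in controls and was not called (log2 fold change -0.39 ± 0.64, SE, adjusted p = 0.764). Leaving out any 1 of the 16 libraries kept the number of the 7 genes called at 5 here and at 6 in C57BL/6J.

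The third comparison asked whether the AngII effect itself differed, with the effect in 129S6/SvEvTac subtracted from that in C57BL/6J. It was larger in C57BL/6J for Col12a1, Col16a1 and Col14a1, which are 3 of the 7 genes against 5.34% of all genes called in that direction, and none was smaller (4.62% of all genes, 9.96% in both directions). For Col12a1 the difference was 2.25 ± 0.48 on the log2 scale (SE, adjusted p = 0.0101), meaning a 4.77-fold larger fold change. For Col16a1 it was 1.30 ± 0.24 (SE, adjusted p = 0.00556). For Col14a1 it was 0.89 ± 0.23 (SE, adjusted p = 0.0261), but this call was lost with 1 library left out in 6 of 16 cases: C57BL/6J control replicates 2 and 5 (adjusted p = 0.0552 and 0.0525), 129S6/SvEvTac AngII replicates 2 and 4 (0.0525 and 0.0555) and 129S6/SvEvTac control replicates 1 and 2 (0.054 and 0.0598). It was also lost with the adipocyte marker level as a covariate (0.66 on the log2 scale, adjusted p = 0.0824).

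None of the 3 type VI chains passed this test. The difference was 0.18 ± 0.16 for Col6a1 (SE, adjusted p = 0.538), 0.06 ± 0.15 for Col6a2 (adjusted p = 0.868) and 0.50 ± 0.22 for Col6a3 (adjusted p = 0.169). The 95% normal intervals ran from -0.14 to 0.49 for Col6a1 and from -0.24 to 0.36 for Col6a2, so differences of either sign remain possible. The Col6a3 difference passed without C57BL/6J AngII replicate 3 (0.64, adjusted p = 0.039), the library with the highest smooth muscle marker sum of its group. For Col7a1 the difference was 1.36 ± 0.88 (adjusted p = 0.369).

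**Figure D2:**
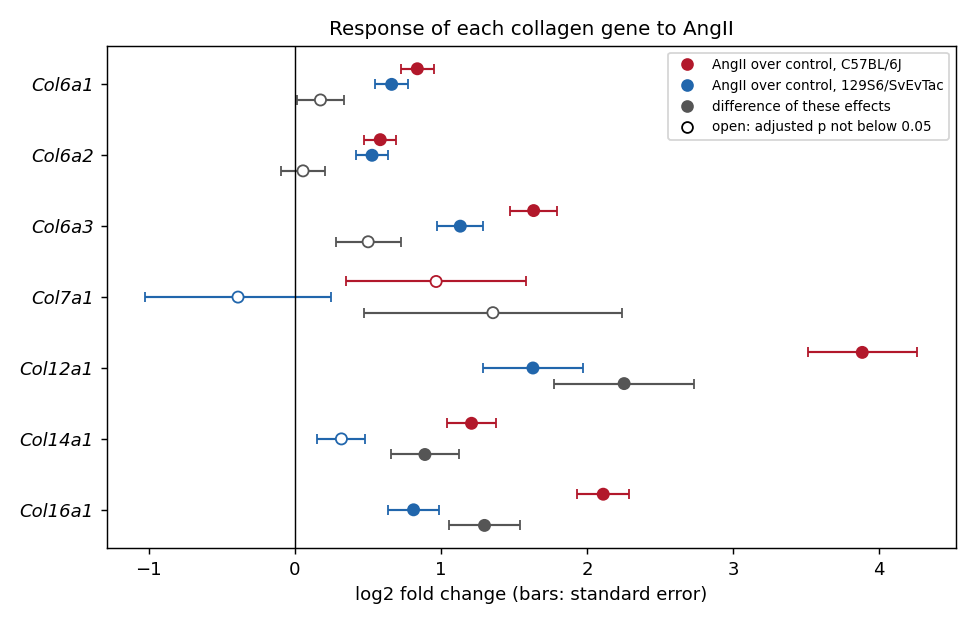
Log2 fold change of each gene with AngII over control in C57BL/6J (red) and in 129S6/SvEvTac (blue) and the difference of these effects (grey), with bars for the standard error and open symbols where the adjusted p was not below 0.05. Col12a1 has the largest effects, 3.88 and 1.63, and the error bars of the strains overlap for Col6a1 (0.84 and 0.66) and Col6a2 (0.58 and 0.53).

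The strains were then compared at each treatment, C57BL/6J against 129S6/SvEvTac. In controls only Col16a1 was called among the 7, and it was lower in C57BL/6J (5.06% of all genes were called lower, 5.35% higher and 10.4% in all). The C57BL/6J controls averaged 45.4 ± 3.92 CPM and those of 129S6/SvEvTac 86.0 ± 7.15 CPM (SD, n = 4 each), a difference of -0.92 ± 0.17 on the log2 scale (SE, adjusted p = 0.00212) that kept its call in all 16 omissions. Other markers moved between these controls: all 6 mesothelium markers were lower in C57BL/6J, with a sum of 0 to 2.08 CPM in C57BL/6J and 15.2 to 78.2 CPM in 129S6/SvEvTac, and 2 of 5 cartilage markers were higher, with sums of 53.0 to 62.7 CPM in C57BL/6J and 5.09 to 9.03 CPM in 129S6/SvEvTac. Their part in the difference was not tested. Col12a1 was also lower in every C57BL/6J control than in every 129S6/SvEvTac control, at 31.6 ± 9.64 and 62.5 ± 9.86 CPM, a separation that 11% of all genes showed in that direction. Its log2 fold change of -0.99 ± 0.34 (SE) was not called (adjusted p = 0.0803). It was called with DESeq2 (adjusted p = 0.0236), limma voom (0.00872), only the groups compared in the fit (0.0179) and a replicate block (0.0368). In 7 other alternatives, single omissions aside, it stayed uncalled. Of the 16 omissions 1 gave a call, that of C57BL/6J AngII replicate 3 (adjusted p = 0.00828). That library is in neither group compared, and the estimate without it was again -0.99. Leaving it out repeats the gene filter, the scaling, the shared estimate of spread and the adjustment. Col6a3 lay at 613 ± 40.5 CPM in C57BL/6J and 467 ± 17.4 CPM in 129S6/SvEvTac controls without overlap, and was not called (log2 fold change 0.39 ± 0.16, adjusted p = 0.139). It was called with limma voom (adjusted p = 0.0132) and with only the groups compared in the fit (adjusted p = 0.00157).

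With AngII 5 of the 7 genes were higher in C57BL/6J, against 16.8% of all genes called higher, 14.6% lower and 31.3% in all: Col6a1, Col6a3, Col7a1, Col12a1 and Col14a1. Col6a3 averaged 1904 ± 487 CPM in C57BL/6J and 1023 ± 184 CPM in 129S6/SvEvTac (SD, n = 4 each), a difference of 0.90 ± 0.16 on the log2 scale (SE, adjusted p = 0.000553). Col14a1 averaged 784 ± 199.8 CPM in C57BL/6J and 484 ± 83.3 CPM in 129S6/SvEvTac, a difference of 0.70 ± 0.16 on the log2 scale (SE, adjusted p = 0.00454). Col6a1, at 1258 ± 107 and 930 ± 127 CPM in the same order, differed by 0.44 ± 0.11 on the log2 scale (SE, adjusted p = 0.00809). For these 3 genes and Col7a1 all C57BL/6J libraries were above all 129S6/SvEvTac libraries, a separation that 14.7% of all genes showed. Between these groups 9 of the 10 smooth muscle markers were lower in C57BL/6J, and all 8 macrophage markers and 4 of 5 cartilage markers were higher, and their part in the result was not tested.

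Col12a1, which stood lower in C57BL/6J than in 129S6/SvEvTac controls, stood higher in C57BL/6J with AngII, at 466 ± 210 CPM in C57BL/6J and 193 ± 54.0 CPM in 129S6/SvEvTac (SD, n = 4 each). The log2 fold change with AngII was 1.27 ± 0.34 (SE, adjusted p = 0.00967), although C57BL/6J replicate 3, at 159.9 CPM, lay inside the 129S6/SvEvTac range. Col16a1 was not called between the strains with AngII, at 196 ± 42.7 CPM in C57BL/6J and 151 ± 40.5 CPM in 129S6/SvEvTac (log2 fold change 0.38 ± 0.17, SE, adjusted p = 0.108). It was called without C57BL/6J AngII replicate 3 (adjusted p = 0.0303) or 129S6/SvEvTac AngII replicate 1 (adjusted p = 0.0123). Col7a1 was called at 0.940 ± 0.396 and 0.234 ± 0.158 CPM in C57BL/6J and 129S6/SvEvTac (adjusted p = 0.0272), on 4 to 85 counts per library, and lost the call without C57BL/6J AngII replicate 3 (0.0649) and without 129S6/SvEvTac AngII replicate 2 or 4 (0.0719 and 0.0758). Col6a2 was not called (log2 fold change 0.27 ± 0.11, SE, adjusted p = 0.0699), and was called without C57BL/6J AngII replicate 2 (0.0476), 129S6/SvEvTac AngII replicate 1 or 4 (0.0441 and 0.0419) or 129S6/SvEvTac control replicate 1 (0.0456). The AngII comparisons and these strain comparisons share libraries and are not independent of each other.

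To compare levels between genes, CPM were divided by the length of the longest protein-coding transcript (RPKM). In C57BL/6J AngII libraries Col6a2 and Col6a1 led at 309 ± 20.6 and 307 ± 26.1 RPKM, with overlapping ranges, followed by Col6a3 at 188 ± 48.2, Col14a1 at 121 ± 30.9, Col12a1 at 40.5 ± 18.2 and Col16a1 at 37.7 ± 8.21 RPKM (SD, n = 4). The ranges of Col6a3 and Col14a1 overlapped, as did those of Col12a1 and Col16a1. In C57BL/6J controls the order was Col6a2 at 206 ± 14.8, Col6a1 at 172 ± 10.4, Col6a3 at 60.7 ± 4.01, Col14a1 at 52.5 ± 1.03, Col16a1 at 8.73 ± 0.753 and Col12a1 at 2.74 ± 0.838 RPKM, with no overlap between neighbours. Col7a1 was last in both, at 0.102 ± 0.0428 RPKM with AngII and 0.0519 ± 0.0179 RPKM in controls. With all annotated exon bases as the length, which for Col6a2 includes retained introns, Col6a1 came before Col6a2 (287 and 173 RPKM with AngII in C57BL/6J).

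In 129S6/SvEvTac AngII libraries the order was Col6a2 at 256 ± 32.6, Col6a1 at 227 ± 31.1, Col6a3 at 101 ± 18.2, Col14a1 at 74.9 ± 12.9, Col16a1 at 29.0 ± 7.78 and Col12a1 at 16.8 ± 4.69 RPKM (SD, n = 4), and each gene overlapped its neighbour except Col6a1 and Col6a3, and Col14a1 and Col16a1. In 129S6/SvEvTac controls the values were Col6a2 at 178 ± 22.8, Col6a1 at 143 ± 19.3, Col14a1 at 60.1 ± 9.82, Col6a3 at 46.2 ± 1.72, Col16a1 at 16.5 ± 1.37 and Col12a1 at 5.43 ± 0.857 RPKM, so Col14a1 stood above Col6a3 there. Col7a1 was at 0.0253 ± 0.0171 RPKM with AngII and 0.0337 ± 0.0321 RPKM in controls.

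The ratio of the type VI chains was then compared within libraries, which removes library scaling. Col6a3 relative to the geometric mean of Col6a1 and Col6a2, per kilobase, had a geometric mean of 0.598 in C57BL/6J AngII libraries and 0.322 in C57BL/6J controls, a 1.85-fold change (0.89 ± 0.20 on the log2 scale, SE, n = 4 each). In 129S6/SvEvTac it was 0.417 with AngII and 0.291 in controls, a 1.43-fold change (0.52 ± 0.08). In both strains all AngII libraries were above all controls, and the exact permutation p was 0.0286, the smallest that 4 against 4 can give (adjusted p = 0.049 over 12 ratio tests). Every ratio test at this smallest p has the same adjusted p, which depends on how many of the 12 reached it. The 12 tests also share libraries, so these adjusted p-values do not stand alone. With AngII the ratio was also higher in C57BL/6J than in 129S6/SvEvTac (1.43-fold, exact p = 0.0286, adjusted p = 0.049), and in controls the strains overlapped (exact p = 0.0857, adjusted p = 0.103). The C57BL/6J AngII libraries spread widely, at 0.659 and 0.843 in replicates 1 and 2 and 0.491 and 0.468 in replicates 3 and 5.

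Col6a2 relative to Col6a1 was lower with AngII in C57BL/6J, at 1.01 in C57BL/6J AngII libraries and 1.202 in C57BL/6J controls, a difference of -0.25 ± 0.05 on the log2 scale (SE, exact permutation p = 0.0286, adjusted p = 0.049). In 129S6/SvEvTac the ratio was 1.13 with AngII and 1.24 in controls, a difference of -0.13 ± 0.05 that did not pass (exact permutation p = 0.0857, adjusted p = 0.103). Col12a1 relative to Col14a1 rose in both strains. It was 0.302 in C57BL/6J AngII libraries and 0.0504 in C57BL/6J controls, 5.99-fold (2.58 ± 0.48 on the log2 scale), and 0.220 with AngII and 0.0904 in controls of 129S6/SvEvTac, 2.43-fold (1.28 ± 0.22). Each separation was complete (exact permutation p = 0.0286, adjusted p = 0.049). In controls this ratio was lower in C57BL/6J than in 129S6/SvEvTac (-0.84 ± 0.28 on the log2 scale, exact permutation p = 0.0286, adjusted p = 0.049), and with AngII the strains overlapped (0.46 ± 0.45, exact permutation p = 0.343).

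**Figure D3:**
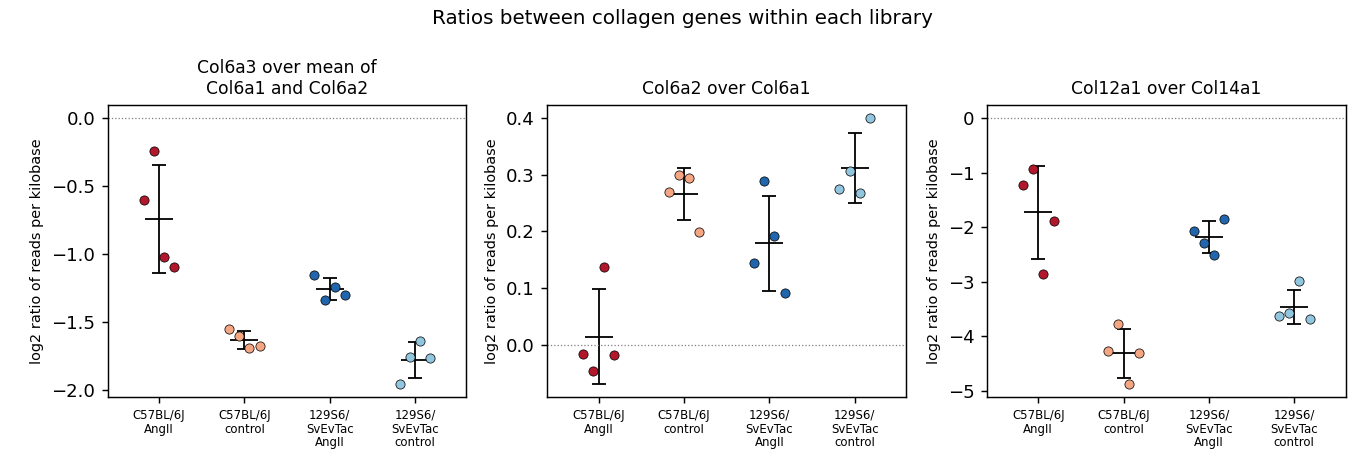
Log2 ratio of reads per kilobase between collagen genes within each library, with group means and SD (n = 4). The ratio of Col6a3 to its partner chains and that of Col12a1 to Col14a1 are higher in every AngII library than in every control of the same strain.

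The 7 genes made up a smaller share of all collagen expression with AngII, although 6 of them rose in C57BL/6J. Of the summed RPKM of 44 collagen genes they held 8.64 ± 0.334% in C57BL/6J AngII libraries and 15.8 ± 0.911% in C57BL/6J controls (SD, n = 4 each), and 10.4 ± 0.425% with AngII and 16.8 ± 0.793% in controls of 129S6/SvEvTac. The ranges did not overlap in either strain, at 8.23 to 9.02% against 15.1 to 17.1% in C57BL/6J and 9.82 to 10.8% against 15.8 to 17.7% in 129S6/SvEvTac. Col6a2 fell to 2.68 ± 0.334% of collagen RPKM in C57BL/6J AngII libraries, against 6.49 ± 0.403% in controls. Col12a1 went the other way in C57BL/6J, at 0.337 ± 0.136% with AngII and 0.0883 ± 0.0356% in controls, with all 4 AngII libraries higher. These shares describe composition, and no test was run on them.

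**Figure D4:**
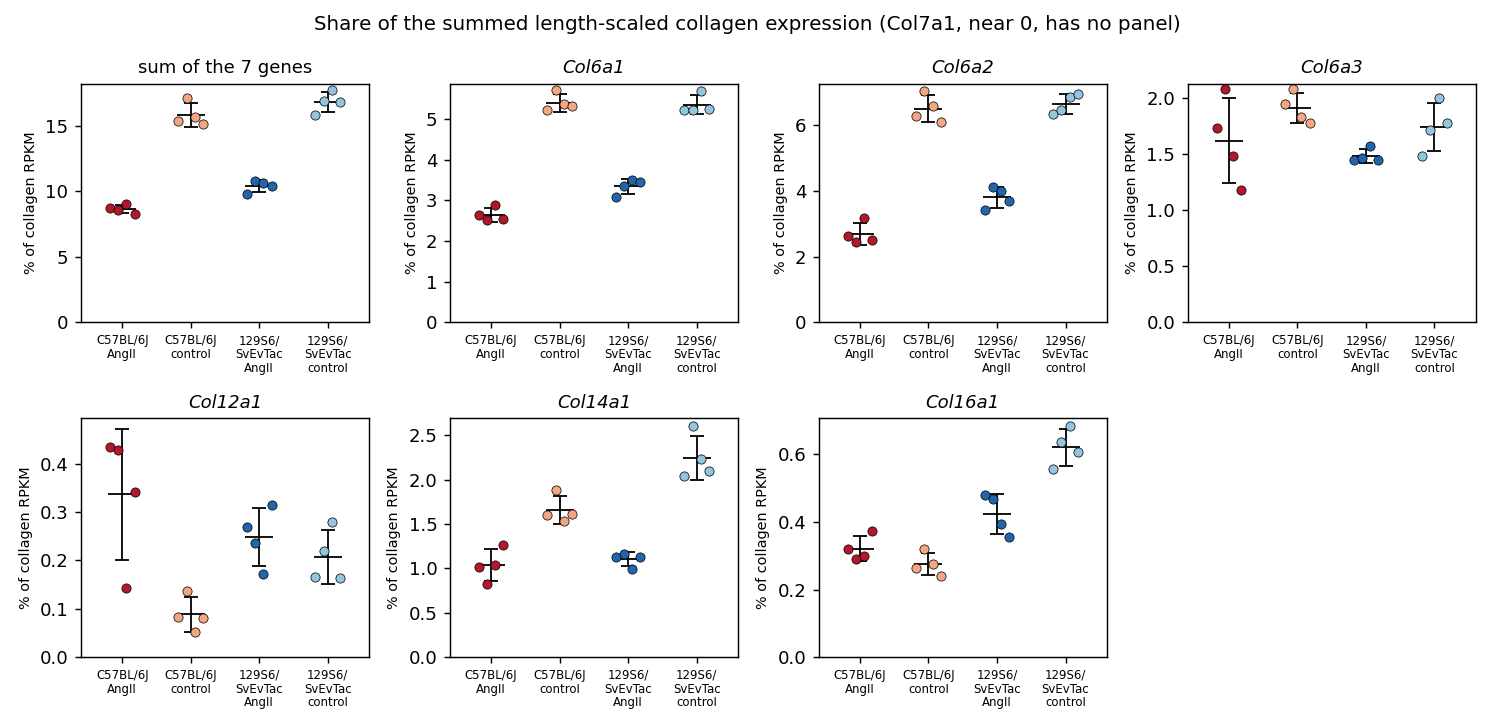
Percent of the summed RPKM of 44 collagen genes held by the 7 genes together and by 6 of them, per library, with group means and SD (n = 4) and y axes from 0. The sum is 8.23 to 9.02% in C57BL/6J AngII libraries and 15.1 to 17.1% in C57BL/6J controls, while the Col12a1 share is higher with AngII in C57BL/6J.

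Genes that work with these collagens were counted from lists. Of 11 fibril-forming collagens, the fibrils on which types XII and XIV sit, 7 rose in C57BL/6J and 7 in 129S6/SvEvTac, with median log2 fold changes of 2.50 and 1.71. Col5a2, a chain of the minor fibril collagen type V, averaged 2540 ± 446 CPM with AngII and 448 ± 25.9 CPM in C57BL/6J controls (log2 fold change 2.50 ± 0.13, SE, adjusted p = 1.19e-07), and Col1a2, of type I, 12640 ± 1647 and 3184 ± 251 CPM in the same groups (SD, n = 4 each). By the test of the difference 1 of the 11 had a larger AngII effect in C57BL/6J, Col5a1 (0.63 ± 0.19, SE, adjusted p = 0.0468), whose count is uncertain because 2 antisense genes share exon bases with it. Of the 11 other collagens of the fibril-associated, type VI and related kinds 7 were tested. In C57BL/6J 1 rose, Col28a1, at 2.93 ± 1.27 CPM with AngII and 0.759 ± 0.215 CPM in controls (adjusted p = 0.0313). None was called for AngII in 129S6/SvEvTac. Col6a6, a chain that can take the place of the Col6a3 product, averaged 18.9 ± 9.44 CPM with AngII and 23.2 ± 2.80 CPM in C57BL/6J controls and was not called (adjusted p = 0.437). In 129S6/SvEvTac it averaged 27.2 ± 10.3 CPM with AngII and 36.6 ± 5.33 CPM in controls. Col6a6 was named for this role, outside the rule for naming genes.

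Among 12 collagen receptors and cell-surface binders 5 rose and 1 fell in C57BL/6J, and 6 rose in 129S6/SvEvTac, with median log2 fold changes of 0.02 and 0.45. The receptor that fell was Itga1, the collagen-binding integrin alpha-1 chain, at 209 ± 52.0 CPM with AngII and 312 ± 16.3 CPM in C57BL/6J controls (adjusted p = 0.00275), a gene named after its values were seen. Its count is uncertain, since 685 exon bases (3.68%) are shared with Gm49395 on the same strand. Itga2, the collagen-binding integrin alpha-2 chain, averaged 16.02 ± 3.54 CPM with AngII and 3.11 ± 0.283 CPM in C57BL/6J controls (SD, n = 4 each; log2 fold change 2.36 ± 0.20, SE, adjusted p = 1.22e-06). Antxr2, a receptor reported to bind and clear type VI collagen, rose in both strains by 0.40 ± 0.08 on the log2 scale in C57BL/6J (SE, adjusted p = 0.00135) and 0.29 ± 0.08 in 129S6/SvEvTac (adjusted p = 0.0318). Cspg4, the NG2 proteoglycan, a type VI receptor, averaged 743 ± 88.1 CPM with AngII and 481 ± 19.3 CPM in 129S6/SvEvTac controls (adjusted p = 0.00712). In C57BL/6J it averaged 546 ± 127 CPM with AngII and 690 ± 16.6 CPM in controls (adjusted p = 0.0584), and its AngII effects differed by -0.97 ± 0.19 (SE, adjusted p = 0.00723).

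Of 14 matrix proteins that bind fibrils or these collagens 8 rose and 2 fell in C57BL/6J, and 4 rose and 3 fell in 129S6/SvEvTac, with median log2 fold changes of 1.10 and 0.43. Tnxb, tenascin-X, a partner of types XII and XIV, fell in both strains, to 254 ± 79.1 CPM with AngII against 515 ± 30.7 CPM in C57BL/6J controls (adjusted p = 0.000425) and to 283 ± 53.6 CPM against 437 ± 41.7 CPM in 129S6/SvEvTac controls (adjusted p = 0.033). Ogn, mimecan, a small proteoglycan of collagen fibrils, also fell in both, to 383 ± 206 CPM with AngII against 940 ± 69.9 CPM in C57BL/6J controls (adjusted p = 0.00139) and to 556 ± 41.98 CPM against 1003 ± 31.9 CPM in 129S6/SvEvTac controls (adjusted p = 0.0487). Tnxb and Ogn were chosen after their values were seen. Bgn, biglycan, a small proteoglycan that binds type VI collagen, rose by 0.42 ± 0.10 on the log2 scale in C57BL/6J (SE, adjusted p = 0.00282) and by 0.92 ± 0.10 in 129S6/SvEvTac (adjusted p = 3.55e-05). Lum, lumican, averaged 431 ± 116 CPM with AngII and 85.5 ± 14.7 CPM in C57BL/6J controls (adjusted p = 9.26e-06) and had a larger effect in C57BL/6J (a log2 difference of 1.60 ± 0.35, SE, adjusted p = 0.0121).

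Of 18 genes for folding, hydroxylation, secretion and trimming of collagen 16 rose and 1 fell in C57BL/6J and 10 rose in 129S6/SvEvTac, with median log2 fold changes of 0.93 and 0.55. Bmp1, which trims procollagens, averaged 288 ± 49.2 CPM with AngII and 118 ± 2.91 CPM in C57BL/6J controls (adjusted p = 1.27e-05). Of 11 genes for collagen breakdown and uptake 8 rose in C57BL/6J, and 5 rose and 1 fell in 129S6/SvEvTac, with medians of 0.45 and 0.42. Mmp14, a membrane-bound collagenase, rose by 1.91 ± 0.14 on the log2 scale in C57BL/6J (SE, adjusted p = 6.41e-07), and its effect was larger there by 1.54 ± 0.19 (adjusted p = 0.000795). Of 8 partners of type VII collagen in the anchoring zone 7 were tested. In C57BL/6J 3 rose and 1 fell, and in 129S6/SvEvTac 1 rose, with medians of 0.44 and 0.48.

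For each collagen the genes with the most similar profile were found as those with the smallest root-mean-square difference of centred log2 CPM over the 16 libraries, among 10516 candidates. For Col6a1 they were Pxdn, Pld3 and Ostc, at 0.13, 0.14 and 0.16, close to the 0.13 between Col6a1 and Col6a2 themselves. For Col6a3 they were Ckap4, Plod2 and Col5a1, at 0.15, 0.18 and 0.18, whereas the differences between Col6a3 and its partner chains were 0.39 for Col6a1 and 0.50 for Col6a2. For Col6a2 they were Pld3, Sh3gl1 and Tmc6, at 0.13, 0.13 and 0.14. For Col16a1 Cdh11, a cadherin of mesenchymal cells, was nearest at 0.15, followed by Sorcs2 at 0.27 and Srpx at 0.29. For Col14a1 they were Bicc1, Lipa and Sgpl1, at 0.15, 0.15 and 0.16. For Col12a1 they were Fst at 0.50, Panx1 at 0.54 and Pappa at 0.57, and Col7a1 had Col27a1 at 0.61, Map3k14 and Nfkbiz at 0.66. The median over all candidates was 1.55 for Col12a1 and 1.07 for Col7a1. It was 0.51 for Col6a1, 0.43 for Col6a2, 0.83 for Col6a3, 0.57 for Col14a1 and 0.87 for Col16a1. The measure grows with the size of a gene's changes, so distances cannot be compared directly between collagens. The counts of Plod2, Col5a1, Sh3gl1, Tmc6, Bicc1, Fst, Map3k14 and Srpx are uncertain, because each shares exon bases with another gene.

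**Figure D5:**
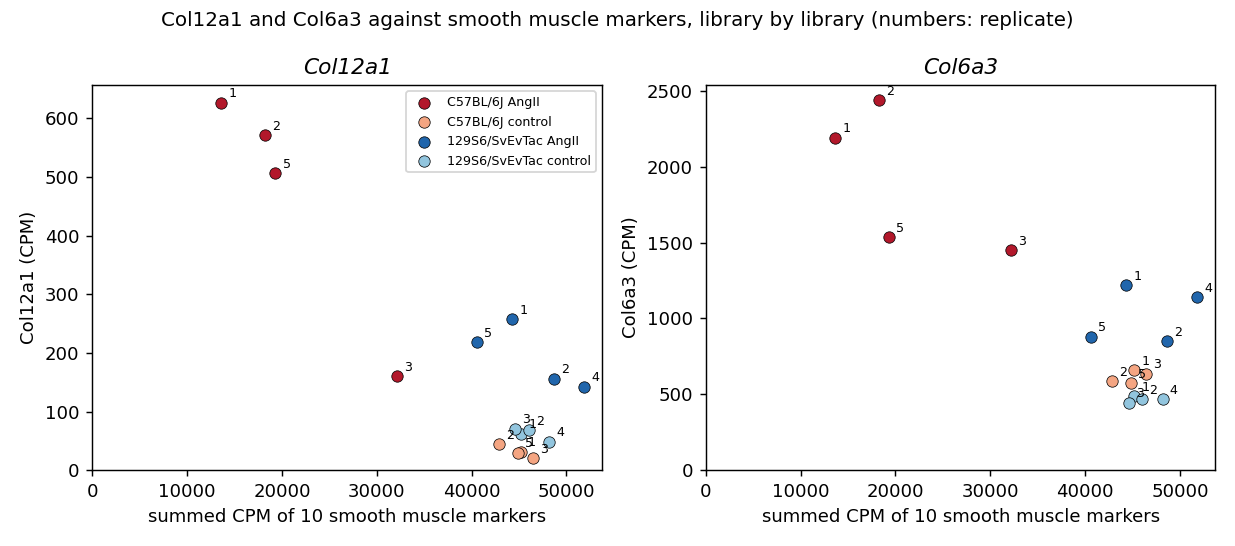
CPM of Col12a1 (left) and Col6a3 (right) against the summed CPM of 10 smooth muscle markers in each library, numbered by replicate, axes from 0. Of the C57BL/6J AngII libraries replicate 3 has the highest marker sum, 32145 CPM, and the lowest Col12a1, 159.9 CPM. The 129S6/SvEvTac AngII libraries exceed their controls in both genes. Their marker sums lie on both sides of the control range, at 40594 to 51835 CPM against 44599 to 48168 CPM.

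In the plot of Col12a1 and Col6a3 against smooth muscle markers the 4 C57BL/6J AngII libraries, at most 32145 CPM, lay below the other 12, at least 40594 CPM. In 129S6/SvEvTac Col12a1 and Col6a3 rose with no smooth muscle marker called. The part of the smooth muscle marker sum in the rise of the collagens was not tested in either strain.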

How the data were processed

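Total RNA of 16 mouse aorta libraries was sequenced, and the authors deposited 1 table of estimated counts per gene. Reads had been aligned to GRCm38/mm10 with HISAT2 and assembled with StringTie, per the labels' protocols, and the submitters' processing notes list DESeq2 1.26.0 and R 3.6.2. The sources used here do not say how these expected counts were derived, nor the strandedness or the Gencode release. The values were whole numbers and were used as deposited. Names, positions and lengths came from GENCODE M21, which matched 52489 of 52636 genes.

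All 16 libraries entered 1 fit with a mean per group (R 4.3.3, edgeR 4.0.16, genes kept by filterByExpr at 10 counts, TMM scaling, quasi-likelihood test, Benjamini-Hochberg adjustment over 17125 genes, threshold 0.05). The fit was tested on simulated data. CPM are TMM-scaled. SE is the log2 fold change divided by the square root of F. Ratios used a pseudocount of 0.5 counts and two-sided exact permutation tests (scipy 1.17.1). Alternatives were other scalings, filters, DESeq2 1.42.0, limma 3.58.1 voom, only the groups compared, a replicate block, marker covariates and omitted libraries. The 7 genes and the gene lists were chosen with earlier results of these data known. Besides the 7, up to 4 called genes by smallest p may be named per list and comparison, and 3 genes most alike in profile per collagen. Counting error is small at these depths except for Col7a1.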

Additional observations from a re-analysis of the deposited data

Results flagged for a closer look

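Col14a1 in 129S6/SvEvTac AngII replicate 1 stood at 608 CPM, away from the other 3 libraries of its group at 429 to 458 CPM. The gap to the nearest library was 0.840 of the range of the group, above Dixon's critical value for 4 samples. It was the only such value among 28 combinations of gene and group, and chance flags about 1 in 20 groups.

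The AngII effect was larger in C57BL/6J than in 129S6/SvEvTac by the test of the difference for Col12a1 (2.25 on the log2 scale), Col16a1 (1.30) and Col14a1 (0.89). In these comparisons smooth muscle, macrophage and adipocyte marker sums also moved in C57BL/6J, and with the adipocyte marker level as a covariate the differences were 1.83 (adjusted p = 0.0349 by edgeR), 1.13 (0.0184) and 0.66 (0.0824) in the same order of genes. The part of the smooth muscle and macrophage markers was not tested.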

How the results depend on the processing

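The 6 calls for AngII in C57BL/6J and the 5 in 129S6/SvEvTac held under every alternative run, and no called value changed sign. Uncalled values did: AngII in 129S6/SvEvTac for Col7a1 (-0.39) was 0.12 with limma voom and -0.83 to 0.48 with 1 library omitted, 0.48 being without 129S6/SvEvTac control replicate 1. The difference of effects for Col6a2 (0.06) was -0.00647 with the adipocyte covariate, -0.00476 with 2 libraries omitted together and -0.00182 to 0.13 with 1 omitted, the lowest without that same control. All 117 alternative values of the ratios moved by less than the spread between libraries. Leaving 1 of 4 libraries out of a group cannot move the difference by more than that spread. The omissions therefore do not show whether the ratios are robust. With 1 library omitted these are values with no test, since 3 against 4 cannot go below 0.0571. Of 933 alternative values of single genes 17 gained and 15 lost a call. Genes with a different AngII effect numbered 1706, against 2663 with DESeq2, 2670 with limma voom and 1049 with C57BL/6J AngII replicate 1 and 129S6/SvEvTac AngII replicate 5 omitted together. Omitting 1 library gave 1039 to 2990, with 2990 without C57BL/6J AngII replicate 3, 1076 without 129S6/SvEvTac AngII replicate 4 and 1039 without 129S6/SvEvTac control replicate 2. Genes called for AngII in 129S6/SvEvTac numbered 2087, against 3324 with voom. Genes called between control strains numbered 1783, against 3209 with voom and 2772 with only the groups compared. Of the 7 collagens 1 was called between control strains, against 2 with DESeq2, 3 with voom, 3 with only the groups compared and 1 to 2 with 1 library omitted. Between strains with AngII 5 were called, against 3 with both libraries omitted, when Col6a1 (adjusted p = 0.0527) and Col7a1 (0.0608) lost the call. The number was 4 with limma voom and with a filter of 1 CPM in 4 libraries. It was 6 with DESeq2 and with library size only, and 4 to 7 with 1 library omitted. Replicate numbers were not taken to pair the libraries. Correlations of deviations between same-numbered libraries ran from -0.06 to 0.15. Differently numbered libraries were not correlated, so these values cannot decide whether the numbers pair the libraries. With the replicate block 2 collagens were called between control strains, Col12a1 being added (-1.21, adjusted p = 0.0368), and with AngII Col6a2 gained a call (0.32, adjusted p = 0.0467) and Col7a1 lost it (adjusted p = 0.0797). The block gave 6175, 1426, 1590, 1383 and 4459 genes called in C57BL/6J, in 129S6/SvEvTac, for the difference and between strains in controls and with AngII. Fitting only the groups compared could not apply to the difference, which uses all groups. Col7a1 rests on 4 to 85 counts per library, which limits its precision. The causes were not tested.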
